A study of Mus musculus with 4 samples.

Results

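The 35 genes described here are endothelial and vessel genes: ligands, receptors, junction and surface proteins and transcription factors that mark the cells lining blood vessels or act in them. They were listed by name, with no cutoff on their values, and all 35 were found among the 17568 genes of the expression table. RNA was sequenced from forelimbs of mouse embryos at E10.25 (31 to 34 somites), wild type and of the Swiss Webster strain, after culture. The treated group, 2 libraries, was cultured with cyclopamine, a plant alkaloid that blocks the Hedgehog signal at the membrane protein Smoothened. The control group, 2 libraries, was cultured in control medium. The labels name no genetic change in either group. The sources used here do not state the dose, the vehicle, the hours of culture or how many embryos made a library. The comparison asks which limb transcripts differ when Hedgehog signalling is inhibited.

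Endothelial cells form early limb vessels as a plexus that is later remodelled into arteries and veins. VEGF ligands act through the receptor kinases encoded by Kdr, Flt1 and Flt4, angiopoietins through Tek, apelin through Aplnr, and Notch ligands such as Dll4 through Notch receptors. Factors of the ETS family (Erg, Fli1, Ets1) and of the SOXF family (Sox7, Sox17, Sox18) switch on much of the endothelial programme. The limb bud at this stage is mostly mesenchyme covered by ectoderm, with vessels running through it. In RNA from whole limbs, more or fewer endothelial cells and more or less RNA per cell cannot be told apart.

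The libraries held between 9779589 and 13555492 reads assigned to genes. Values are CPM, normalized counts scaled by the authors to an effective library size for each library. The treatment could be read in its known targets: Gli1, a transcription factor induced by the pathway, measured 8.05 and 4.70 CPM in cyclopamine and 56.2 and 56.7 CPM in control. Ptch1, a Hedgehog receptor, measured 51.3 and 32.2 CPM in cyclopamine and 116 and 107 CPM in control. Both fell (log2 fold change -3.10, SE 0.23, and -1.44, SE 0.19, limma adjusted p = 4.32e-06 and 0.00216). The tissue also carried the defining endothelial transcripts. Cdh5, Pecam1 and Kdr, the genes of VE-cadherin, of the adhesion protein PECAM-1 and of the main VEGF receptor, each had at least 727 reads in every library. Over the 35 genes, reads in a library ran from 2 (Lyl1) to 1798 (Ets1), and 26 genes had at least 100 reads in each.

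None of the endothelial genes passed the test. All genes averaging 1 CPM or more were compared with limma on log2(CPM + 0.5), and p-values were adjusted over all 13568 of them by the Benjamini-Hochberg method. Of the 34 endothelial genes tested, 0 passed an adjusted p of 0.05 in limma, against 0.28% of all genes tested (38 genes). The smallest adjusted p among them was 0.504. The quasi-likelihood test of edgeR and DESeq2, run on recovered reads, also called 0. Over all genes edgeR called 43 and DESeq2 called 52. At an unadjusted p under 0.05 limma placed 5 endothelial genes higher in cyclopamine (14.7%, against 3.04% of all genes) and 0 lower (against 2.78%). The authors' deposited table gives 0 of the 35 a false discovery rate under 0.05, against 0.455% of its genes. With 2 libraries per group, the smallest two-sided p of an exact permutation test is 0.333, and limma instead borrows its estimate of spread from other genes. The submitters describe the libraries as biological replicates without saying whether cultures or embryos were separate. The p-values therefore measure no more than the spread between these libraries, which may be technical.

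Most values lay above control, by small amounts. The log2 fold change (cyclopamine over control) was above 0 for 30 of the 34 genes tested, against 51.0% of all genes tested, and its median was 0.21, against 0.005 over all genes. Summed over the 35 genes, the level was 1101 and 1154 CPM in cyclopamine and 1020 and 954 CPM in control. Cyclopamine 1 lay above cyclopamine 2 in 15 of the 34 genes, with a median log2 difference of -0.04. Control 1 lay above control 2 in 21 of the 34, with a median of 0.19 (-0.005 over all genes), which is about the size of the difference between the groups. Without control 2 the median over the endothelial genes was 0.11, with 22 of 34 genes higher. Without control 1 it was 0.31.

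The groups were then compared library by library. In 14 of the 34 genes tested (41.2%) both cyclopamine libraries lay above both controls, against 16.8% of all genes. In 1, Icam2, both lay below both controls, against 15.8% of all genes. The 14 were Apln and Dll4 among ligands, Eng and Robo4 among receptors, Pecam1, Cdh5, Esam, Cldn5, Nos3 and Gja4 among junction, surface and enzyme genes, and Sox17, Sox18, Ets1 and Tal1 among transcription factors. The 95% interval of the log2 fold change lay inside -1 to 1 in 27 genes. It reached past 1 in Cldn5, Sox17, Eng, Robo4, Tal1, Nos3 and Gja5, so a change of that size was not bounded in these.

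**Figure D1:**
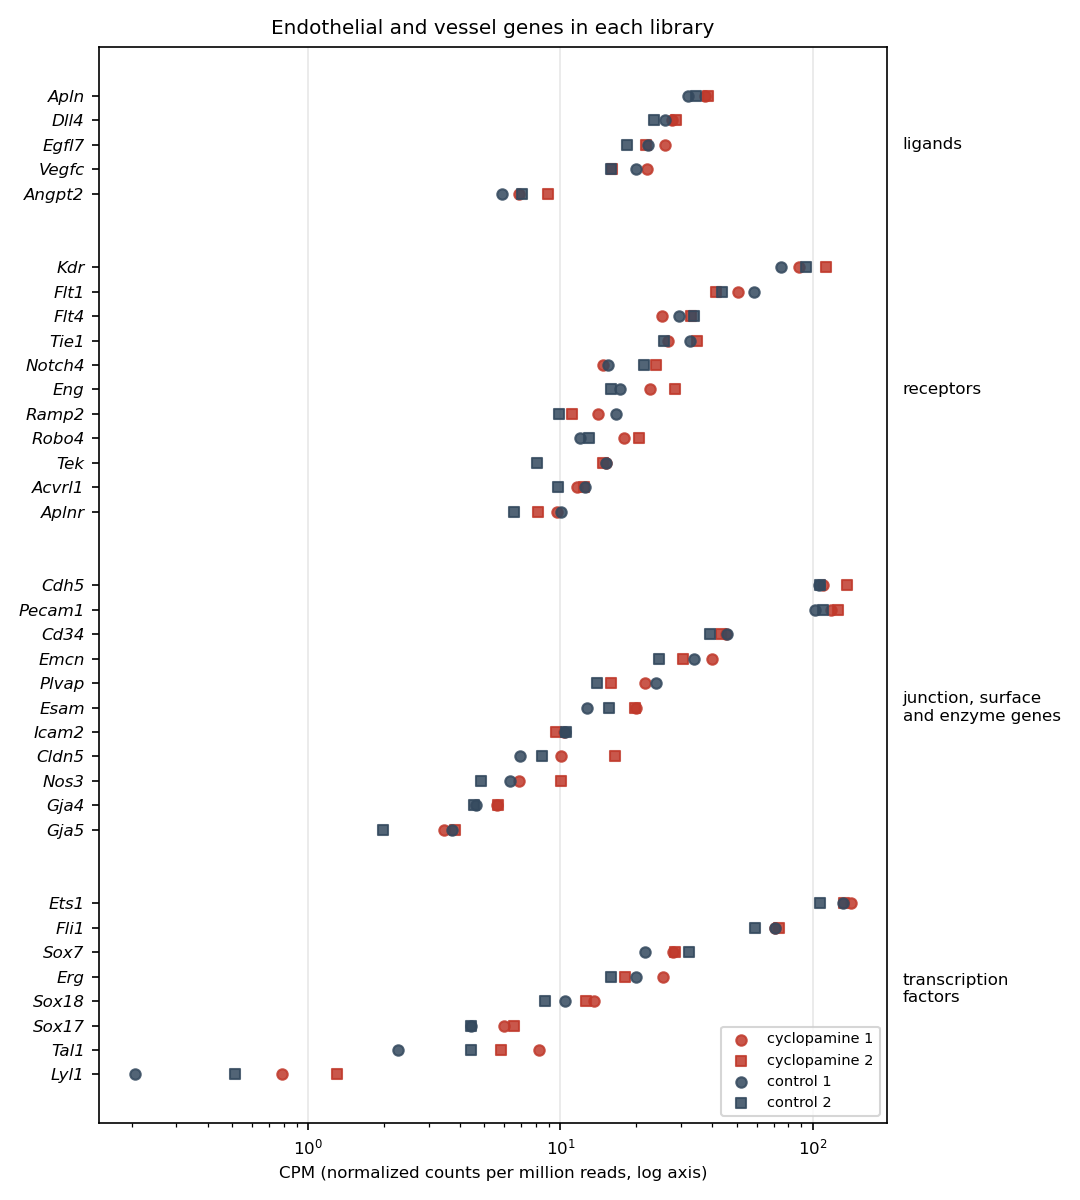
Level of each of the 35 genes in each library, in CPM on a log axis, with genes grouped by role; red marks are cyclopamine libraries and dark marks control libraries, circles for number 1 and squares for number 2. The marks of a gene lie close together, and the gap between the groups is mostly within the gap between libraries. In 14 of the 34 genes tested (41.2%, against 16.8% of all genes) both red marks lie right of both dark marks. Eng, Robo4, Esam and Tal1 are among them.

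Among ligands, 5 of 5 genes had a log2 fold change above 0, with a median of 0.19, and 0 passed. Apln, which encodes the peptide apelin, measured 37.3 and 38.6 CPM in cyclopamine and 32.1 and 34.5 CPM in control (0.19, SE 0.17). Dll4, the Notch ligand of arterial and sprouting endothelium, measured 27.8 and 28.7 CPM in cyclopamine and 26.1 and 23.4 CPM in control (0.19, SE 0.18). Both genes kept their groups apart, with a gap between groups smaller than the gap between the controls for Dll4 and slightly larger for Apln. Angpt2, an angiopoietin that antagonises or weakly activates Tek, measured 6.86 and 8.91 CPM in cyclopamine and 5.88 and 7.05 CPM in control, and the groups overlapped. Vegfc, the lymphatic growth factor gene, measured 22.0 and 16.0 CPM in cyclopamine and 19.9 and 15.9 CPM in control, so that the libraries numbered 1 were high and those numbered 2 low in both groups. Egfl7 encodes a secreted protein of the vessel wall and measured 26.0 and 21.8 CPM in cyclopamine and 22.3 and 18.3 CPM in control. Its exons share bases with those of 4 annotated genes, 2 of them microRNA genes.

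The VEGF receptor genes stayed within their spread. Kdr measured 88.0 and 113 CPM in cyclopamine and 75.0 and 94.4 CPM in control (0.25, 95% interval -0.12 to 0.61). Flt1, whose product binds VEGF-A with high affinity and limits its action, measured 50.4 and 41.3 CPM in cyclopamine and 58.8 and 43.6 CPM in control (-0.15, interval -0.53 to 0.24). Flt4, the receptor gene for VEGF-C, measured 25.2 and 32.9 CPM in cyclopamine and 29.5 and 34.0 CPM in control (-0.14, interval -0.54 to 0.26). Groups overlapped in all 3 genes. Flt1 and Flt4 were 2 of the 4 endothelial genes with a value below 0, and each turned to a value just above 0 when a library was left out (0.06 for Flt1 without control 1, 0.05 for Flt4 without cyclopamine 1).

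Tek and Tie1 encode the angiopoietin receptor and its partner kinase. Tek measured 15.1 and 14.7 CPM in cyclopamine and 15.1 and 8.08 CPM in control, a log2 fold change of 0.41 (SE 0.27) that rested on control 2 and was -0.015 without it. Tie1 measured 26.7 and 34.9 CPM in cyclopamine and 32.6 and 25.8 CPM in control (0.07, SE 0.19). Neither gene separated the groups.

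Eng and Robo4 were the receptor genes with the largest difference. Eng, which encodes endoglin, a co-receptor of the TGF-beta and BMP9 pathway, measured 22.6 and 28.5 CPM in cyclopamine and 17.2 and 15.9 CPM in control. Its mean was 25.5 ± 4.21 CPM in cyclopamine and 16.6 ± 0.91 CPM in control (SD, n = 2 each), and its log2 fold change 0.60 (SE 0.20, limma adjusted p = 0.504). Robo4, an endothelial Roundabout receptor that stabilises vessels, measured 17.9 and 20.5 CPM in cyclopamine and 12.0 and 13.0 CPM in control (0.60, SE 0.21, limma adjusted p = 0.575). Leaving out a library gave values from 0.43 to 0.77 for Eng and from 0.51 to 0.70 for Robo4. Their sign could not change in these fits, because both cyclopamine libraries lay above both controls. Acvrl1, the ALK1 receptor gene that partners Eng, measured 11.6 and 12.4 CPM in cyclopamine and 12.5 and 9.77 CPM in control (0.11, 95% interval -0.38 to 0.60), with overlap. The difference between Eng and Acvrl1 was not tested, and the interval of Acvrl1 reaches the value of Eng.

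The remaining receptor genes overlapped between groups. Aplnr, the apelin receptor gene, measured 9.70 and 8.18 CPM in cyclopamine and 10.1 and 6.54 CPM in control. Ramp2, which encodes the partner of the adrenomedullin receptor, measured 14.1 and 11.1 CPM in cyclopamine and 16.6 and 9.84 CPM in control. Notch4, the endothelial Notch receptor gene, measured 14.7 and 23.9 CPM in cyclopamine and 15.5 and 21.5 CPM in control. In Aplnr and Ramp2 the libraries numbered 2 were the lower of each group, and in Notch4 the higher. Exons of Ramp2 share 1103 bases with Vps25 on the same strand, so its reads are uncertain. Over the 11 receptor genes 8 were above 0, with a median of 0.11.

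**Figure D2:**
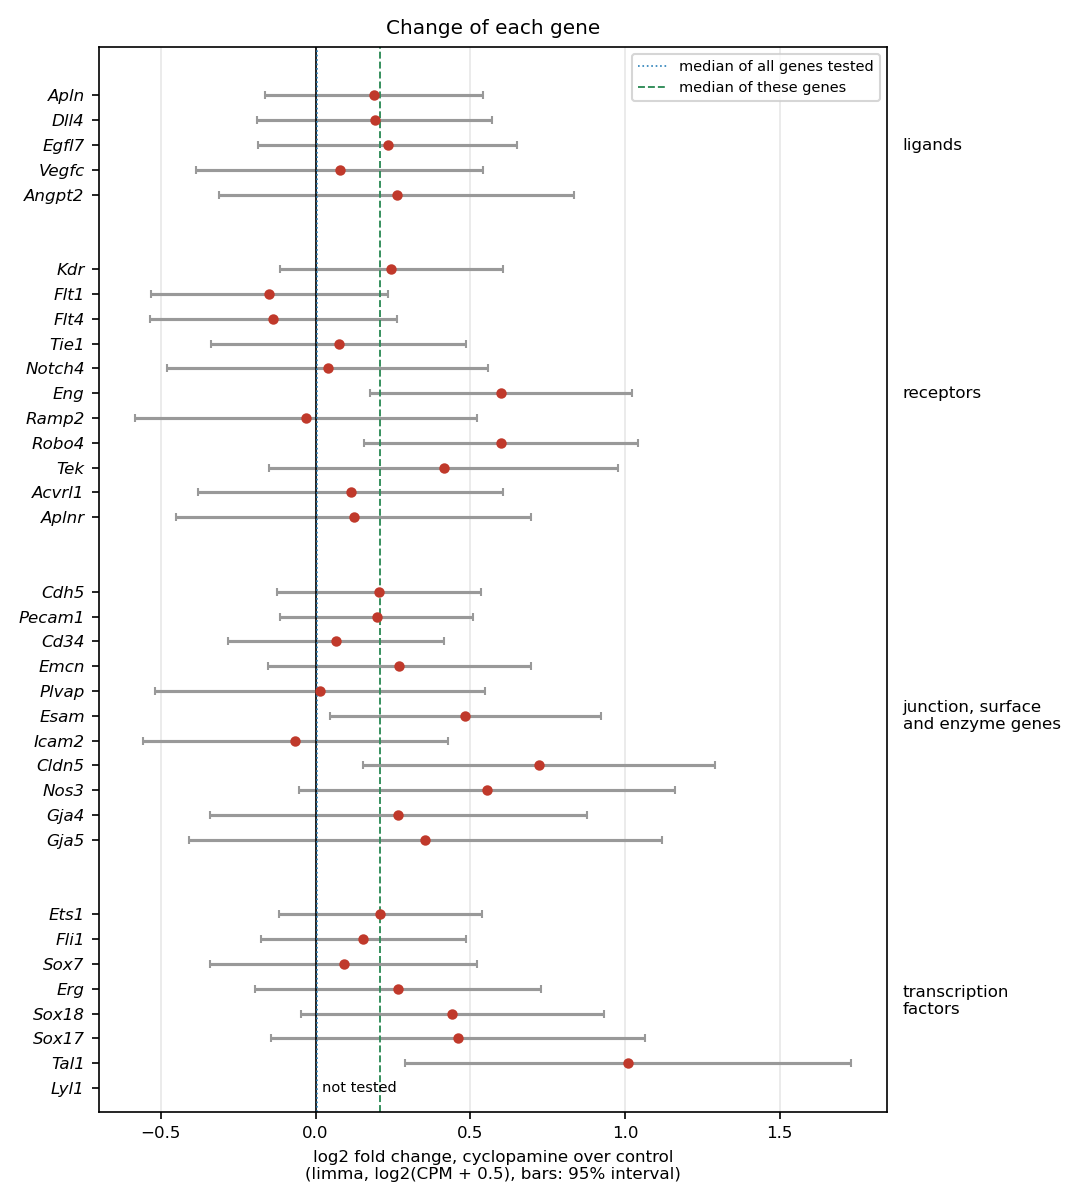
Log2 fold change of each gene, cyclopamine over control, from limma on log2(CPM + 0.5), with its 95% interval (grey bars) and genes grouped by role; dashed and dotted lines mark the medians of these genes (0.21) and of all genes tested (0.005). Intervals of 29 of the 34 genes tested hold 0, and those of Eng, Robo4, Esam, Cldn5 and Tal1 lie above it without adjustment for the number of genes.

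Of 11 junction, surface and enzyme genes 10 were above 0, with a median of 0.27. The abundant markers moved little. Cdh5, the gene of the endothelial cadherin, measured 110 and 137 CPM in cyclopamine and 106 and 107 CPM in control (0.20, SE 0.16). Pecam1 measured 118 and 126 CPM in cyclopamine and 102 and 110 CPM in control (0.20, SE 0.15). Both kept the groups apart. Without cyclopamine 2 the log2 fold changes were 0.045 for Cdh5 and 0.148 for Pecam1. The counting error of both genes is small, with at least 992 reads in every library, and the upper ends of their 95% intervals were 0.53 and 0.51.

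Cldn5, Nos3 and Esam had the largest log2 fold changes of these 11 genes, and none passed. Cldn5, which encodes claudin-5, the main claudin of endothelial tight junctions, measured 10.1 and 16.5 CPM in cyclopamine and 6.91 and 8.45 CPM in control (0.72, SE 0.27, limma adjusted p = 0.641). Cyclopamine 2 stood highest, and without it the value was 0.38. Esam, an adhesion molecule gene of endothelial tight junctions, measured 20.0 and 19.8 CPM in cyclopamine and 12.7 and 15.6 CPM in control (0.48, SE 0.21, limma adjusted p = 0.793). Nos3, the endothelial nitric oxide synthase gene, measured 6.86 and 10.1 CPM in cyclopamine and 6.29 and 4.85 CPM in control (0.55, SE 0.29). Its groups did not overlap, and its exons share 1040 bases with an antisense transcript, which cannot be told apart from it if strand was not used in counting. Gja4, a connexin gene of arterial endothelium, measured 5.60 and 5.67 CPM in cyclopamine and 4.64 and 4.55 CPM in control (0.27, SE 0.29). Gja5, another arterial connexin gene, measured 3.47 and 3.81 CPM in cyclopamine and 3.71 and 1.98 CPM in control, with overlap.

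Of the surface glycoprotein genes, Cd34, Plvap and Icam2 were close to control, and Emcn was somewhat higher, with overlap. Cd34, shared with blood progenitors, measured 45.3 and 43.5 CPM in cyclopamine and 45.9 and 39.1 CPM in control (0.07, SE 0.16). Emcn, the endomucin gene of capillaries and veins, measured 39.8 and 30.6 CPM in cyclopamine and 34.0 and 24.5 CPM in control (0.27, SE 0.20). Plvap, whose product forms the diaphragms of fenestrae and caveolae, measured 21.7 and 15.8 CPM in cyclopamine and 24.0 and 14.0 CPM in control (0.01, SE 0.25). In Emcn and Plvap the libraries numbered 1 were higher than those numbered 2 in both groups. Icam2, an adhesion molecule gene of endothelium and platelets, averaged 9.99 ± 0.49 CPM in cyclopamine and 10.5 ± 0.06 CPM in control (SD, n = 2 each), with a log2 fold change of -0.06 (SE 0.23). Both treated libraries lay below both controls, by less than the standard error.

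Among transcription factors 7 of 7 tested genes were above 0, with a median of 0.27. Tal1, a basic helix-loop-helix factor gene of endothelium and of red cell and megakaryocyte precursors, had the largest difference of all the endothelial genes tested. It measured 8.20 and 5.83 CPM in cyclopamine (104 and 72 reads) and 2.27 and 4.41 CPM in control (22 and 60 reads). The log2 fold change was 1.01 (SE 0.34, limma adjusted p = 0.525), and it was 0.60 without control 1, the lowest library, and 1.42 without control 2. Lyl1, a close relative of Tal1, did not reach the expression minimum and was not tested. It had 10 and 16 reads in cyclopamine and 2 and 7 reads in control, or 0.789 and 1.30 CPM in cyclopamine and 0.206 and 0.514 CPM in control. The authors' deposited table gives Lyl1 a log2 fold change of 1.44 and Tal1 of 1.05, the largest of the 35, both with a false discovery rate of 0.571 or more. Its lowest value among the 35 is that of Flt1, at -0.16.

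None of the SOXF genes passed. Sox17, the arterial member, measured 6.00 and 6.56 CPM in cyclopamine and 4.44 and 4.41 CPM in control (0.46, SE 0.28). Sox18 measured 13.6 and 12.6 CPM in cyclopamine and 10.4 and 8.67 CPM in control (0.44, SE 0.23). Both kept the groups apart, while Sox7 measured 27.9 and 28.5 CPM in cyclopamine and 21.7 and 32.3 CPM in control (0.09, SE 0.20), with the controls on either side of the treated libraries. Whether Sox7 differs from Sox17 and Sox18 was not tested.

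The ETS genes differed from control by at most 0.27 on the log2 scale. Ets1 measured 142 and 133 CPM in cyclopamine and 132 and 107 CPM in control (0.21, SE 0.15), and its groups touched but did not overlap. Fli1 measured 70.8 and 73.7 CPM in cyclopamine and 71.0 and 59.2 CPM in control (0.15, SE 0.16). Erg measured 25.6 and 18.1 CPM in cyclopamine and 20.0 and 15.9 CPM in control (0.27, SE 0.22). For Fli1 and Erg a control library lay above a cyclopamine library.

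**Figure D3:**
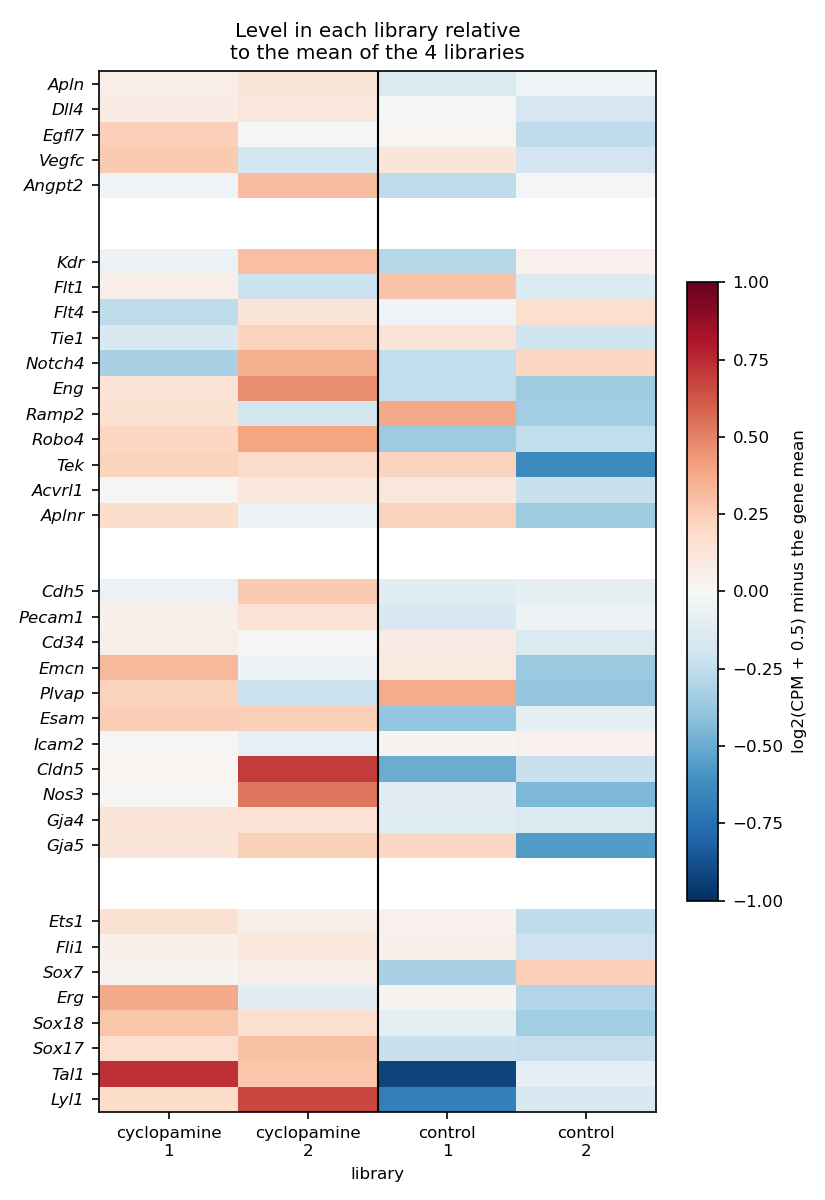
Each gene's log2(CPM + 0.5) in each library minus its mean over the 4 libraries, with cyclopamine libraries left of the line, control libraries right of it, and the order of genes as in the plot of levels by library. Red is above the gene's mean and blue below; control 2 was the lowest library in 20 of the 35 genes and control 1 in 11.

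Levels were compared between genes after division by the joined length of all annotated exons of a gene, which can exceed that of the transcripts present. On the scale of CPM per kilobase of annotated exon, Cdh5 stood highest, at 29.4 in cyclopamine and 25.3 in control, followed by Fli1 (20.7 in cyclopamine and 18.7 in control), Pecam1 (19.5 in cyclopamine and 17.0 in control) and Ets1 (16.2 in cyclopamine and 14.1 in control). The first 5 places were held by the same genes in both groups. Kdr ranked 6 in cyclopamine and 7 in control. Cldn5 ranked 8 in cyclopamine and 16 in control, the largest shift up the order, and Tie1 ranked 18 in cyclopamine and 11 in control. Lyl1 stood lowest, at 0.579 in cyclopamine and 0.200 in control. The control range from Lyl1 to Cdh5 was 126-fold. These ranks describe means of 2 libraries and were not tested.

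The 35 genes lie on 13 chromosomes of the mm10 build, and a few are neighbours. Fli1 (chr9:32422204-32542861, minus strand) and Ets1 (chr9:32636221-32757820, plus strand) are 93.4 kilobases apart with no protein-coding gene between them. Robo4 (chr9:37401897-37415115) and Esam (chr9:37528078-37538319) are 113 kilobases apart on the plus strand, with 2 protein-coding genes between them, and they had log2 fold changes of 0.60 and 0.48. Icam2 (chr11:106377656-106388075) and Pecam1 (chr11:106654217-106750628) are 266 kilobases apart on the minus strand, and had -0.06 and 0.20. Exons of 10 of the 35 genes share bases with another annotated gene, in 9 of them on the opposite strand.

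Promoters are shown for the genes with the largest differences that had an entry, that is, whose groups did not overlap and whose unadjusted p was under 0.05, because the ETS factors above are known to act at endothelial promoters. The sequences are RefSeq's (GRCm38.p6), from 250 bases before to 50 after the annotated start, 5′ to 3′ on the gene's strand, which is the plus strand for all 4. Capitals mark the letters AGGAAG or CCGGAA on either strand, longer forms of GGAA, the core that ETS factors recognise. Copies of GGAA outside these longer forms were not searched for and are not marked. Eng lies at chr2:32646345-32646644, Robo4 at chr9:37401722-37402021, Cldn5 at chr16:18776597-18776896 and the upstream start of Tal1 at chr4:115056176-115056475.
Eng: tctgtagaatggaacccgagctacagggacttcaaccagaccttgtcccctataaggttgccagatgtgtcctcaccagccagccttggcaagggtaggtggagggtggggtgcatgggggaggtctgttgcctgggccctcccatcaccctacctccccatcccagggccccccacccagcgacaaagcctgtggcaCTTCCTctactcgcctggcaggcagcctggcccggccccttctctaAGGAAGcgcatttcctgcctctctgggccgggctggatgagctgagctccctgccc
Robo4: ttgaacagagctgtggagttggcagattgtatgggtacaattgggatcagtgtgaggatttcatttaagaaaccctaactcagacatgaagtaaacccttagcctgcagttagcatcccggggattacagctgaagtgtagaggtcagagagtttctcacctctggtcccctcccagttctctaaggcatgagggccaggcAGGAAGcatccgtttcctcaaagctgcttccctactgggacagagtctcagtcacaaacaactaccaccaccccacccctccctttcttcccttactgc
Cldn5: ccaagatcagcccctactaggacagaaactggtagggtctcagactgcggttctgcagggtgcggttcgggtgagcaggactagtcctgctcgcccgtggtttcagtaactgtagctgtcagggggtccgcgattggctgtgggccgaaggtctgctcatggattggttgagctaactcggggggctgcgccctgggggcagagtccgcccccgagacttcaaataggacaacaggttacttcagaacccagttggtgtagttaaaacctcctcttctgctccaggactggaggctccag
Tal1: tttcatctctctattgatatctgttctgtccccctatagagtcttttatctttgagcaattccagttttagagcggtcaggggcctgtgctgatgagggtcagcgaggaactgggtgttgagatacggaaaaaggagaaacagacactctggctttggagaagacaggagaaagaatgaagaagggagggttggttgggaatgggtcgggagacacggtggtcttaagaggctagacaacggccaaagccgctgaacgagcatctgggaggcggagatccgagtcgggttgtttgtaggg

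The Eng window held 2 such matches, starting 52 and 6 bases before the start, and the Robo4 window held 1, starting 49 bases before it. The Cldn5 window and both Tal1 windows held none of these letters. Entries were found for 20 of the 35 genes, with 25 starts, and 14 of the 25 windows (56.0%) held a match, against 45.2% of 32851 windows of the same length in the table. The SOX letters ACAAT, on either strand, stood in 8 of the 25 (32.0%, against 31.0% of all), and the GATA letters AGATAA in 3 (12.0%, against 11.2%). GACCACCCA, the letters bound by GLI factors, stood in 0 of the 25, against 0.253% of all. A match is a description of these letters, not of binding.

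Other endothelial genes were read from a separate list. Of 22 tested, 17 were above 0 with a median of 0.22, and 0 passed in limma. At an unadjusted p under 0.05, 4 were higher (18.2%, against 3.04% of all genes) and 1 lower (4.55%, against 2.78%). Rhoj, a small GTPase gene of endothelium, measured 13.3 and 14.2 CPM in cyclopamine and 5.37 and 10.9 CPM in control (0.80, SE 0.29, limma adjusted p = 0.612). S1pr1, a sphingosine-1-phosphate receptor gene, measured 27.0 and 27.9 CPM in cyclopamine and 19.3 and 20.6 CPM in control (0.45, SE 0.18). In the other direction, Heg1, a receptor gene of vessel and heart development, measured 25.3 and 30.5 CPM in cyclopamine and 40.8 and 42.5 CPM in control (-0.57, SE 0.17, limma adjusted p = 0.385). Heg1 was the only one of the 22 with both cyclopamine libraries below both controls (4.55%, against 15.8% of all genes), and 12 had both above (54.5%, against 16.8%).

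Vessel signalling genes outside the 35, many of them also used by mesenchyme, had a median of 0.05 over 26 genes, 15 above 0. None passed in limma (0 of 26; at an unadjusted p under 0.05, 0 were higher and 5 lower, or 19.2%, against 2.78% of all genes). Vegfd, listed under its older symbol Figf, encodes a ligand of Flt4 and measured 37.4 and 30.5 CPM in cyclopamine and 55.6 and 44.9 CPM in control (-0.56, SE 0.18, limma adjusted p = 0.449). Slit3, a guidance ligand of Robo receptors, measured 64.2 and 71.8 CPM in cyclopamine and 90.2 and 91.2 CPM in control (-0.41, SE 0.15). Jag1, a Notch ligand gene, measured 49.3 and 52.1 CPM in cyclopamine and 66.2 and 67.4 CPM in control (-0.40, SE 0.15). All 3 had both cyclopamine libraries below both controls. That held for 6 of the 26 genes (23.1%, against 15.8% of all genes). In 4 of the 26 both lay above both controls (15.4%, against 16.8%). Vegfa, the main attractant of endothelium, measured 325 and 308 CPM in cyclopamine and 372 and 275 CPM in control, with overlap.

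Other endothelial and blood transcription factors had a median of -0.07 over 14 genes tested, 5 above 0, and 0 passed in limma (0 higher and 1 lower at an unadjusted p under 0.05). Lmo2, whose product bridges Tal1 to GATA factors in blood and endothelium and which the distal limb mesenchyme also expresses, measured 19.6 and 15.6 CPM in cyclopamine and 29.2 and 34.7 CPM in control. Its log2 fold change was -0.84 (SE 0.20, limma adjusted p = 0.133), and the authors' deposited table gives it -0.86 at a false discovery rate of 0.0362. It thus lay on the opposite side of control from Tal1. Foxc2 (-0.71, SE 0.39) and Ets2 (-0.27, SE 0.15) did not pass. Venous and lymphatic genes had a median of 0.09 over 6 genes, led by Prox1 (0.51, SE 0.31), Nrp2 (-0.20, SE 0.16) and Ephb4 (0.10, SE 0.15), with 0 past the threshold in limma and 0 at an unadjusted p under 0.05.

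Markers of other cell types moved with the endothelial values or not, as follows. All 12 tested erythroid markers were above 0, with a median of 0.83. Their summed level was 2178 and 1282 CPM in cyclopamine and 1332 and 617 CPM in control, so the groups overlapped, and within each group the library numbered 1 was higher. They were led by Hemgn (1.70, SE 0.40, limma adjusted p = 0.14), Hba-x (0.95, SE 0.30) and Hbb-y (0.90, SE 0.28). Hba-x and Hbb-y are embryonic globin genes. All 7 tested megakaryocyte markers were above 0, with a median of 0.74 and a sum over the 12 listed genes of 37.5 and 48.8 CPM in cyclopamine and 26.6 and 22.0 CPM in control. These were led by Itga2b (1.04, SE 0.30), Ppbp (1.01, SE 0.33) and Pf4 (0.74, SE 0.26). No marker of either list passed in limma (0 of 12 and 0 of 7), and none was at 0 reads. The authors' deposited table gives Hemgn a log2 fold change of 2.09 at a false discovery rate of 0.0156. At an unadjusted p under 0.05, 7 erythroid (58.3%) and 3 megakaryocyte markers (42.9%) were higher, against 3.04% of all genes. Tal1, Lyl1, Cd34, Icam2, Fli1, Erg and Pecam1 are also known from blood cells. The part of blood cell RNA in the values of these and the other endothelial genes was not tested.

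Macrophage markers had a median of 0.04 over 12 genes, 6 above 0, with sums of 24.0 and 41.3 CPM in cyclopamine and 30.4 and 32.8 CPM in control. The smallest p values of that list were those of Cd68 (-0.61, SE 0.30), Adgre1 (0.75, SE 0.50, listed as Emr1) and Cd14 (0.50, SE 0.47). Mural cell markers, which mark the pericytes and smooth muscle around vessels, had a median of 0.06 over 11 genes, 7 above 0, and sums of 321 and 448 CPM in cyclopamine and 347 and 402 CPM in control. In that list Cspg4 had 0.43 (SE 0.36), Acta2 0.32 (SE 0.32) and Vtn 0.74 (SE 0.79). The Vtn value rested on cyclopamine 2, with 0.158 and 7.21 CPM in cyclopamine and 1.44 and 0.441 CPM in control. Neither list held a gene past the threshold in limma (0 of 12 and 0 of 11, and 0 at an unadjusted p under 0.05), and of both lists only Higd1b was at 0 in a library. Myh11, the smooth muscle myosin gene, measured 0.0789 and 1.30 CPM in cyclopamine and 0.206 and 0.588 CPM in control, too low to test.

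The tissue around the vessels gave small medians: 0.08 over 10 limb mesenchyme markers (Fgf10 -0.60, SE 0.16; Lhx2 0.29, SE 0.15; Prrx2 0.30, SE 0.17) and 0.12 over 8 ectoderm markers (Krt14 0.82, SE 0.33; Krt18 0.27, SE 0.22; Epcam -0.15, SE 0.19). Hypoxia response genes, which include inducers of vessel growth, had a median of -0.09 over 10 genes (Pdk1 -0.23, Bnip3 -0.12 and Car9 0.17). These 3 lists held 0 genes past the threshold in limma, and at an unadjusted p under 0.05 they held 1 lower (mesenchyme) and 1 higher (ectoderm). Neural markers differed in kind: all 7 tested were below 0. At an unadjusted p under 0.05, 6 of the 7 were lower in limma, against 2.78% of all genes. After adjustment 5 passed as lower, against 0.28% of all genes in either direction. These were Tubb3 (-1.82, SE 0.28), Stmn2 (-2.04, SE 0.33), Elavl3 (-2.24, SE 0.38), Pou3f2 (-2.42, SE 0.48) and Ina, with limma adjusted p from 0.0112 to 0.0464. Ina had 0 reads in both cyclopamine libraries and 1.65 and 4.33 CPM in control, so no fold is given for it. The sum over the 8 neural markers listed was 106 and 97.6 CPM in cyclopamine and 122 and 163 CPM in control. Nes, which is not specific to neurons, makes up most of that sum. Control 2 was the highest library for the neural sum and the lowest for 20 of the 35 endothelial genes. Whether these marker differences come from tissue content was not tested, and neither was their part in the endothelial values.

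**Figure D4:**
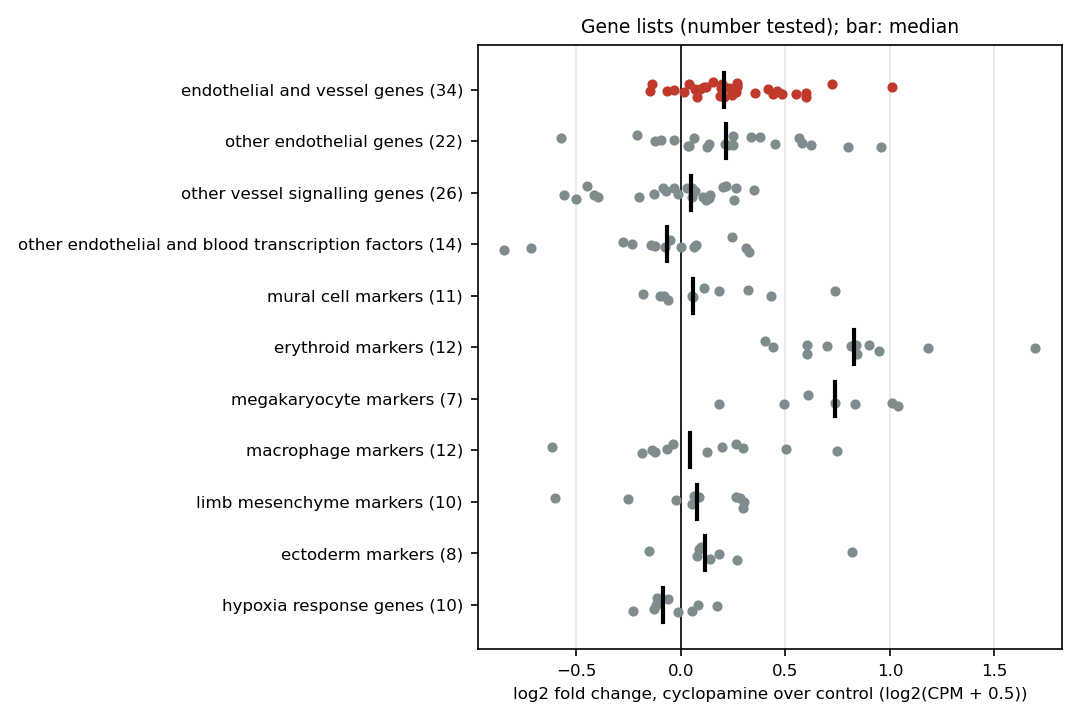
Log2 fold change of every tested gene of the 11 lists drawn, cyclopamine over control, with the number tested in parentheses and the median as a black bar; the endothelial and vessel genes are in red. The endothelial and vessel genes and the other endothelial genes have medians of 0.21 and 0.22. Medians are 0.05 for other vessel signalling genes and -0.07 for other endothelial and blood transcription factors. The erythroid and megakaryocyte markers lie between 0.18 and 1.70, and the mural, macrophage, mesenchyme, ectoderm and hypoxia lists centre near 0.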

How the data were processed

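RNA sequencing was analysed in 4 libraries of cultured mouse forelimbs, 2 with cyclopamine and 2 controls, grouped by the labels. Per the labels' protocols, RNA was extracted with TRIzol and libraries were made for the SOLiD platform. The submitters' processing notes name the mm10 build, TopHat2 2.0.9, edgeR 3.4.2, HTSeq 0.5.4p5, Bowtie and SAMtools, without saying how each was used. Whether counting used strand, and the annotation, are not stated there.

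The deposited table gives a normalized signal, which the authors scaled to CPM; sums per library ran from 973185 to 1022612. All values were whole multiples of the worth of a single read (100%, within 0.01 read), from 0.0735 to 0.103 CPM, so reads were recovered. The authors' deposited comparison table holds log2 fold changes and p-values, with the test not stated.

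After a minimum mean of 1 CPM, limma 3.58.1 in R 4.3.3 was run, two-sided, with its intensity trend on log2(CPM + 0.5), and p-values were adjusted over 13568 genes by Benjamini-Hochberg. Fold changes on this scale understate those of low genes. Alternatives were edgeR 4.0.16 and DESeq2 1.42.0 on recovered reads, and other filters, pseudocounts, scalings, variance model, a replicate block, and leaving out each library. The code was tested on simulated data. The reads carry no stated molecular identifiers, so read numbers are not numbers of molecules.

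The members and lists were chosen with earlier results of these data known. Named genes are all 35 members, Gli1 and Ptch1, and, from each other list, genes past the threshold and the 3 with the smallest p; Vegfa, Myh11, Higd1b and Nes were named in addition, after their values were seen. A few genes that this rule names outside the 35 are not reported here. Of the listed genes, 8 were matched through RefSeq synonyms, and 2 erythroid genes are not used here. Coordinates and exon lengths are from GENCODE vM21 on mm10.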

Additional observations from a re-analysis of the deposited data

How the results depend on the processing

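Of 475 values of single endothelial genes under the alternatives, 452 kept their direction and their side of the threshold. None was called by any fit except with a replicate block, which called 2 endothelial genes higher, Tal1 (adjusted p = 0.0247) and Eng (adjusted p = 0.0328). That block called 351 of all genes, against 38 without it. The labels tie the replicate number to no litter or day, and across all genes the difference between cyclopamine 1 and 2 correlated with that between controls 1 and 2 at r = 0.274, and over the 34 endothelial genes tested at r = 0.384 (genes are not independent replicates). Over all genes limma called 2 without the expression filter, 0 without an intensity trend (454 higher and 383 lower at an unadjusted p under 0.05), 20 with plain library totals and 25 after quantile normalization. The cause of these differences was not tested.

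Leaving out a library, with the lone library of a group assumed to vary like the other group, gave 43 to 122 calls over all genes and 0 endothelial calls (smallest adjusted p = 0.151). The median log2 fold change of the endothelial genes ran from 0.108 to 0.308. Of the single genes, 13 changed sign in such a fit, with ranges of -0.362 to 0.064 (Flt1), -0.326 to 0.053 (Flt4), -0.015 to 0.844 (Tek), -0.115 to 0.264 (Tie1), -0.394 to 0.332 (Ramp2), -0.193 to 0.374 (Sox7), -0.056 to 0.282 (Acvrl1), -0.368 to 0.396 (Plvap), -0.173 to 0.419 (Aplnr), -0.048 to 0.181 (Cd34), -0.027 to 0.736 (Gja5), -0.304 to 0.382 (Notch4) and -0.144 to 0.300 (Vegfc). Plvap was also below 0 after quantile normalization (-0.023), in edgeR (-0.010) and in DESeq2 (-0.015). Depth limits the 5 genes with fewer than 50 reads in a library, whose lowest numbers were 2 (Lyl1), 22 (Tal1), 27 (Gja5), 43 (Sox17) and 45 (Gja4).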
